A study of Mus musculus with 12 samples.

Results

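The genes described here surround the RNA-binding protein Lin28 and the microRNA let-7, in mouse embryonic stem cells undergoing neuronal differentiation in culture. Of 8 listed genes, Lin28a, Lin28b, Trim71, Hmga2, Igf2bp1 and Igf2bp3 had 19 probe sets that carry their symbol alone in the annotation of the array. All 6 were among the 12280 genes tested, out of 18193 genes with a named probe set. Hmga1 and Igf2bp2 had no probe set with that symbol alone in the annotation used, so they have no value here.

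Total RNA was measured on 12 Affymetrix mouse arrays, 3 in each of 4 groups: HM1 cells at day 4, HM1 cells at day 6, CAG150 cells at day 4 and CAG150 cells at day 6, all under neuronal differentiation. HM1 cells derive from a male mouse blastocyst and have no working Hprt gene, and by the series title the CAG150 cells carry expanded CAG repeats. The repeat's gene, the strain, the protocol and any agent added to the medium are not named in the labels, and each kind was represented by 1 line, so line and repeat cannot be told apart. Groups follow the sample titles, because the descriptions give the earlier day for the HM1 day 6 samples and the same replicate number for all day 6 samples. Nothing says that the samples of a group came from separate cultures, so p-values measure the spread between these samples, which may be technical.

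Lin28a and Lin28b bind the precursors of let-7 and block their maturation, so that little mature let-7 is made in stem cells. Lin28a recruits terminal uridylyl transferases, which tag the precursor for destruction. Let-7 in turn pairs with sites in the messenger RNAs of Lin28a, Lin28b, Trim71, Hmga2 and Igf2bp1 and lowers them, which makes a double-negative loop. In neural differentiation the loop is known to turn over, with Lin28 falling and let-7 and miR-125 rising. The microRNAs themselves were not measured here.

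The mature microRNAs of this loop are shown because the listed genes are known as their regulators or targets, with the seed (bases 2 to 8, which pair with the target) in capitals. The sequences are from RefSeq with the build GRCm38.p6, which matched 11 let-7 family names and 2 names of miR-125, the other microRNA known to target Lin28a.
let-7a-5p: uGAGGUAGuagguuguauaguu
let-7d-5p: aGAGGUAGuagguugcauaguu
let-7g-5p: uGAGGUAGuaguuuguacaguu
miR-98-5p: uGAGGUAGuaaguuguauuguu
let-7j: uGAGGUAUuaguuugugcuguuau
miR-125a-5p: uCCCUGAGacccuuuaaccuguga
miR-125b-5p: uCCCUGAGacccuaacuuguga
Of the 11 let-7 family names, 10 share the seed GAGGUAG, miR-98-5p among them, and let-7j ends its seed in another base. Both miR-125 names share the seed CCCUGAG. Genes of the 2 families lie near each other: the hairpins of Mir125a and Mirlet7e on chromosome 17 start 460 bases apart, and those of Mir125b-1 and Mirlet7a-2 on chromosome 9 start 45210 bases apart.

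The promoters of the 3 genes that were lower in CAG150 at day 6 and of Igf2bp3, which passed in no comparison, are shown from 250 bases before to 50 after the annotated start, 5′ to 3′ on the gene's strand (RefSeq, GRCm38.p6). The table used held 7 of the 8 listed genes. Capitals mark matches on either strand to 4 motifs: CACGTG (an E-box, its own reverse complement), CATTGT (bound by Sox factors), ATGCAAAT (the octamer) and GGGCGG (a GC box, CCGCCC on the other strand).
Lin28a chr4:134018767-134019066 (minus strand): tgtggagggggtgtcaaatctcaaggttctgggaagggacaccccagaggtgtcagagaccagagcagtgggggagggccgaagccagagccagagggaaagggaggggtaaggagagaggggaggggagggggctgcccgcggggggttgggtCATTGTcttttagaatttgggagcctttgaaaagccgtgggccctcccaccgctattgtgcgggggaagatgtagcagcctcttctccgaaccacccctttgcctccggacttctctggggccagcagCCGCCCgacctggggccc
Trim71 chr9:114564320-114564619 (minus strand): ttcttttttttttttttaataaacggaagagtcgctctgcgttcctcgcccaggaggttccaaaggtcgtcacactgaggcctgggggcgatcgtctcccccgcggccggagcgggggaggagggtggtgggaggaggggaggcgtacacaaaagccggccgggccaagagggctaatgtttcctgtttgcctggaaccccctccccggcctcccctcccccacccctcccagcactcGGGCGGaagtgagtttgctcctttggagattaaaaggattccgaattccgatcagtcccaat
Hmga2 chr10:120476420-120476719 (minus strand): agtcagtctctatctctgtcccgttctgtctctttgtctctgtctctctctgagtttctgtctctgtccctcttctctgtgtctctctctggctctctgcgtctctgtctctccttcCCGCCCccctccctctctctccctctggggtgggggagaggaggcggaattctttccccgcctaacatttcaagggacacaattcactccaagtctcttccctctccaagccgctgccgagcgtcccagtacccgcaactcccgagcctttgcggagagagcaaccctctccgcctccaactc
Igf2bp3 chr6:49214905-49215204 (minus strand): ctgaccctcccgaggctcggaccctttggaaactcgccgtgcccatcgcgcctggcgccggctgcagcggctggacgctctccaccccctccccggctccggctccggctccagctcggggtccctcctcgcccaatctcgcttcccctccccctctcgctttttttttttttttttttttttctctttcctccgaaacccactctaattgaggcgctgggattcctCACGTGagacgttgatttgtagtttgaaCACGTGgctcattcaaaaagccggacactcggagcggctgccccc
The GC box letters occurred once in each of Lin28a, Trim71 and Hmga2, and in 35.7% of all 32851 promoters of this length. The Lin28a window also held CATTGT at position -96 from the start, which 12.6% of all promoters hold. The Igf2bp3 window held CACGTG at -23 and at 6, which 7.15% of promoters hold, and the Lin28b window held it at -49. None of the 4 printed windows held the octamer, found in 1.74% of promoters. The GC content was 63.3% for Lin28a, 59.3% for Trim71, 57.7% for Hmga2 and 60.3% for Igf2bp3, against 39% for Lin28b and a median of 52.7%. The Lin28b window (45470152 to 45470451 on chromosome 10, minus strand) lies inside the gene, annotated from 45376617 to 45486314. Its letters therefore do not describe the outer 5′ end of Lin28b. A match describes the letters of a window and says nothing of binding.

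Values below are intensities, the authors' scaled brightness of a probe set on a linear scale, with the group mean ± SD (n = 3). Differences were fitted with limma over all tested genes on log2(intensity + 16) and carry their SE, folds come from them, and a gene passed at a Benjamini-Hochberg adjusted p under 0.05. Values of different genes cannot be set against each other, because probe sets differ in brightness for the same amount of RNA. Median intensities lay between 19.2 and 25.9 over the 12 arrays, whose number limits the precision. In bulk RNA, fewer cells of a type and less RNA per cell cannot be told apart.

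Lin28a, Trim71 and Hmga2 were lower in CAG150 than in HM1 cells at day 6, and Lin28a was also lower at day 4. Lin28a, Trim71 and Igf2bp1 fell from day 4 to day 6 in both lines. Hmga2 fell in CAG150, and its change differed between the lines. At day 4, 1 of the 6 genes passed, against 15.8% of all genes (7.87% higher and 7.92% lower in CAG150), and at day 6, 3 of 6 against 21.4% (10.1% higher and 11.2% lower). From day 4 to day 6, 3 of 6 passed in HM1, where 38.9% of all genes did (20.4% higher and 18.5% lower), and 4 of 6 in CAG150, where 44.4% did (22.5% higher and 21.9% lower), so the day counts over both directions lie near the background. For the difference between the lines in the day change, 1 of 6 passed, against 3.61% of all genes (1.58% higher and 2.03% lower). Each of these calls was in the lower direction. The listed genes were chosen with earlier results of these data known, so counts beside shares of all genes are descriptions and no test. The arrays of the groups compared did not overlap for 4 of the 6 genes at day 4 (34.4% of all genes), 4 at day 6 (38.6%), 3 with day in HM1 (49.1%) and 6 with day in CAG150 (55%). The median difference of the 6 genes was -0.15 at day 4 and -0.34 at day 6 between lines, where the median of all genes was 0.01 and 0. It was -0.31 in HM1 and -0.52 in CAG150 between days, where all genes had a median of 0.

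**Figure D1:**
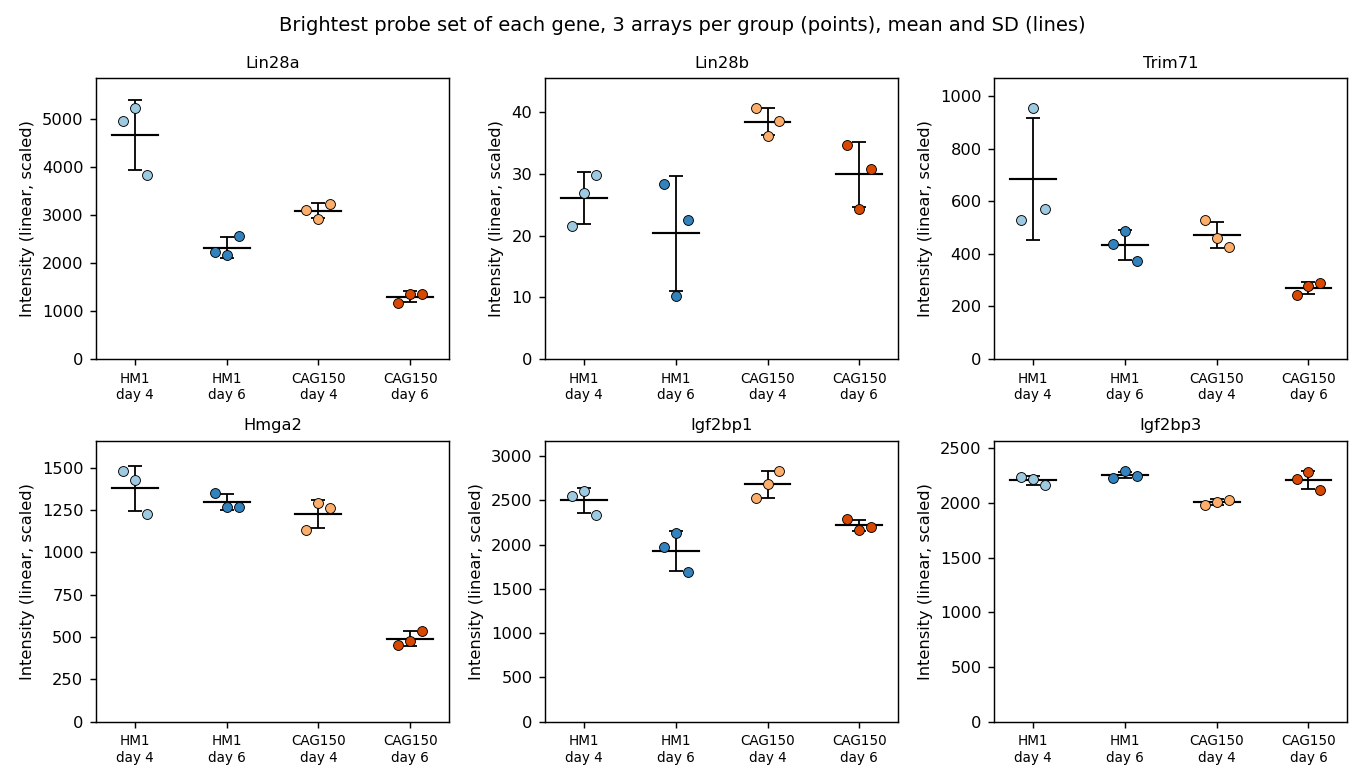
Intensity (linear, scaled) of the 6 genes with a probe set on each array, by line and day, with the mean and SD of 3 arrays. Lin28a runs from 5220 on an HM1 day 4 array to 1160 on a CAG150 day 6 array, and Hmga2 has 1 low group, CAG150 at day 6.

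Lin28a, on chromosome 4, is the Lin28 gene best known for blocking let-7 maturation in mouse embryonic stem cells. Its brightest probe set read 4960, 5220 and 3840 on the HM1 day 4 arrays (4670 ± 734) and 2220, 2170 and 2570 at day 6 (2320 ± 219). In CAG150 cells it read 3110, 2920 and 3240 at day 4 (3090 ± 159) and 1160, 1360 and 1360 at day 6 (1290 ± 115). HM1 at day 4 was highest, then CAG150 at day 4, HM1 at day 6 and CAG150 at day 6, and no neighbours in this order overlapped. CAG150 cells were lower by 0.58 ± 0.12 on the log2 scale at day 4 (1.5-fold, adjusted p = 0.0064) and by 0.84 ± 0.12 at day 6 (1.79-fold, adjusted p = 0.00037). From day 4 to day 6 Lin28a fell 1.99-fold in HM1 (adjusted p = 4e-05) and 2.38-fold in CAG150 (adjusted p = 4.5e-06). Whether the fall differed between lines could not be resolved: the difference was -0.26 ± 0.17 (95% interval -0.63 to 0.11, adjusted p = 0.51).

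The other Lin28a probe set was dimmer and did not show the same order. It read 463, 238 and 639 in HM1 at day 4 (447 ± 201), 413, 400 and 314 in HM1 at day 6, 393, 454 and 658 in CAG150 at day 4, and 322, 341 and 266 in CAG150 at day 6. Of the groups only the CAG150 pair did not overlap, and in a fit over all probe sets it passed in no comparison (line difference at day 4 0.23, adjusted p = 0.66). With both probe sets averaged, the day 4 difference between lines was -0.17 (adjusted p = 0.4) and no longer passed, while those at day 6 and between days still did.

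Lin28b, the paralog on chromosome 10, was dim, with 1 probe set. It read 21.5, 26.9 and 29.9 in HM1 at day 4 (26.1 ± 4.28) and 28.4, 10.2 and 22.5 at day 6 (20.4 ± 9.26). CAG150 arrays read 40.6, 36.2 and 38.6 at day 4 (38.4 ± 2.19) and 34.7, 24.3 and 30.8 at day 6 (30 ± 5.23). The CAG150 day 4 arrays lay above all others, and the other 3 groups overlapped. Lin28b passed in no comparison. CAG150 minus HM1 was 0.37 ± 0.16 at day 4 (95% interval 0.02 to 0.73, adjusted p = 0.15) and 0.37 ± 0.16 at day 6 (adjusted p = 0.14), the sign opposite to that of Lin28a. Without HM1 day 6 replicate 1 the day 6 difference was 0.53 and passed (adjusted p = 0.042). Without HM1 day 6 replicate 2, the array at 10.2, it was 0.15 (adjusted p = 0.47), and the day 4 difference passed (0.37, adjusted p = 0.041).

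Trim71, on chromosome 9, encodes a ubiquitin ligase and RNA-binding protein of stem and progenitor cells and is a conserved let-7 target. Its brightest probe set read 530, 953 and 571 in HM1 at day 4 (685 ± 234) and 436, 487 and 374 at day 6 (432 ± 56.7). In CAG150 cells it read 527, 459 and 428 at day 4 (471 ± 50.2) and 245, 276 and 291 at day 6 (271 ± 23.4). The order of the groups was that of Lin28a, with CAG150 at day 4 and HM1 at day 6 overlapping. At day 6 it was 1.56-fold lower in CAG150 (-0.64 ± 0.18, adjusted p = 0.026), and it fell 1.52-fold with day in HM1 (adjusted p = 0.02) and 1.7-fold in CAG150 (adjusted p = 0.0046). At day 4 the line difference of -0.48 ± 0.18 did not pass (adjusted p = 0.1).

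The second Trim71 probe set had less spread and passed in every one of these 4 comparisons. It read 730, 882 and 621 in HM1 at day 4 (744 ± 131), 408, 389 and 392 in HM1 at day 6 (396 ± 10.1), 438, 411 and 457 in CAG150 at day 4 (435 ± 23) and 228, 247 and 211 in CAG150 at day 6 (229 ± 18). Its line differences were -0.74 at day 4 (adjusted p = 0.0022 over all probe sets) and -0.75 at day 6 (adjusted p = 0.0013), and its falls with day were -0.87 in HM1 and -0.88 in CAG150. The brightest probe set's call at day 6 was lost without CAG150 day 6 replicate 1 or 2 or HM1 day 6 replicate 1 or 2 (adjusted p 0.055 to 0.09). Its call between days in HM1 was lost without HM1 day 4 replicate 2, the array at 953 (-0.34, adjusted p = 0.058), without HM1 day 6 replicate 3 (adjusted p = 0.075), and with only the groups compared in the fit (adjusted p = 0.054). At day 4 the line difference was -0.22 without HM1 day 4 replicate 2 (adjusted p = 0.31), and it passed without HM1 day 4 replicate 1 (-0.64, adjusted p = 0.047) and with both probe sets averaged (-0.61, adjusted p = 0.0076).

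Hmga2, on chromosome 10, encodes a small chromatin protein that bends DNA, and its messenger RNA holds several let-7 sites. Its brightest probe set read 1480, 1430 and 1230 in HM1 at day 4 (1380 ± 133), 1350, 1270 and 1270 in HM1 at day 6 (1290 ± 45.9) and 1130, 1290 and 1260 in CAG150 at day 4 (1230 ± 85.8). In CAG150 at day 6 it read 453, 479 and 538 (490 ± 43.5). Those 3 arrays lay below the other 9, which overlapped between groups. At day 6 Hmga2 was 2.59-fold lower in CAG150 (-1.38 ± 0.1, adjusted p = 9.5e-07), and it fell 2.46-fold with day in that line (-1.3 ± 0.1, adjusted p = 4.9e-07). The differences were -0.17 ± 0.1 between lines at day 4 (adjusted p = 0.28) and -0.09 ± 0.1 with day in HM1 (95% interval -0.3 to 0.12, adjusted p = 0.51).

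The change of Hmga2 with day was lower in CAG150 than in HM1 by 1.21 ± 0.14 on the log2 scale (95% interval -1.51 to -0.91, adjusted p = 0.00045). It ranked 46 from the lowest such difference among 12280 genes. Of its 4 probe sets, 3 passed between lines at day 6, where 14.5% of all probe sets did. With day in CAG150, 4 passed (-1.41 to -0.57), where 33.5% of all probe sets did, while differences with day in HM1 were -0.19 to -0.02. The interaction passed for 2 of 4 (-1.21 and -1.22), against 1.54% of all probe sets. The third bright probe set gave -1.01 (adjusted p = 0.057), with group means of 1070 and 1080 in HM1 and 1110 and 536 in CAG150. The last had means of 8.28 to 20.2, around the filter intensity of 11.9. The brightest probe set is of a kind whose probes can match more than 1 transcript, as is that of Igf2bp3.

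**Figure D2:**
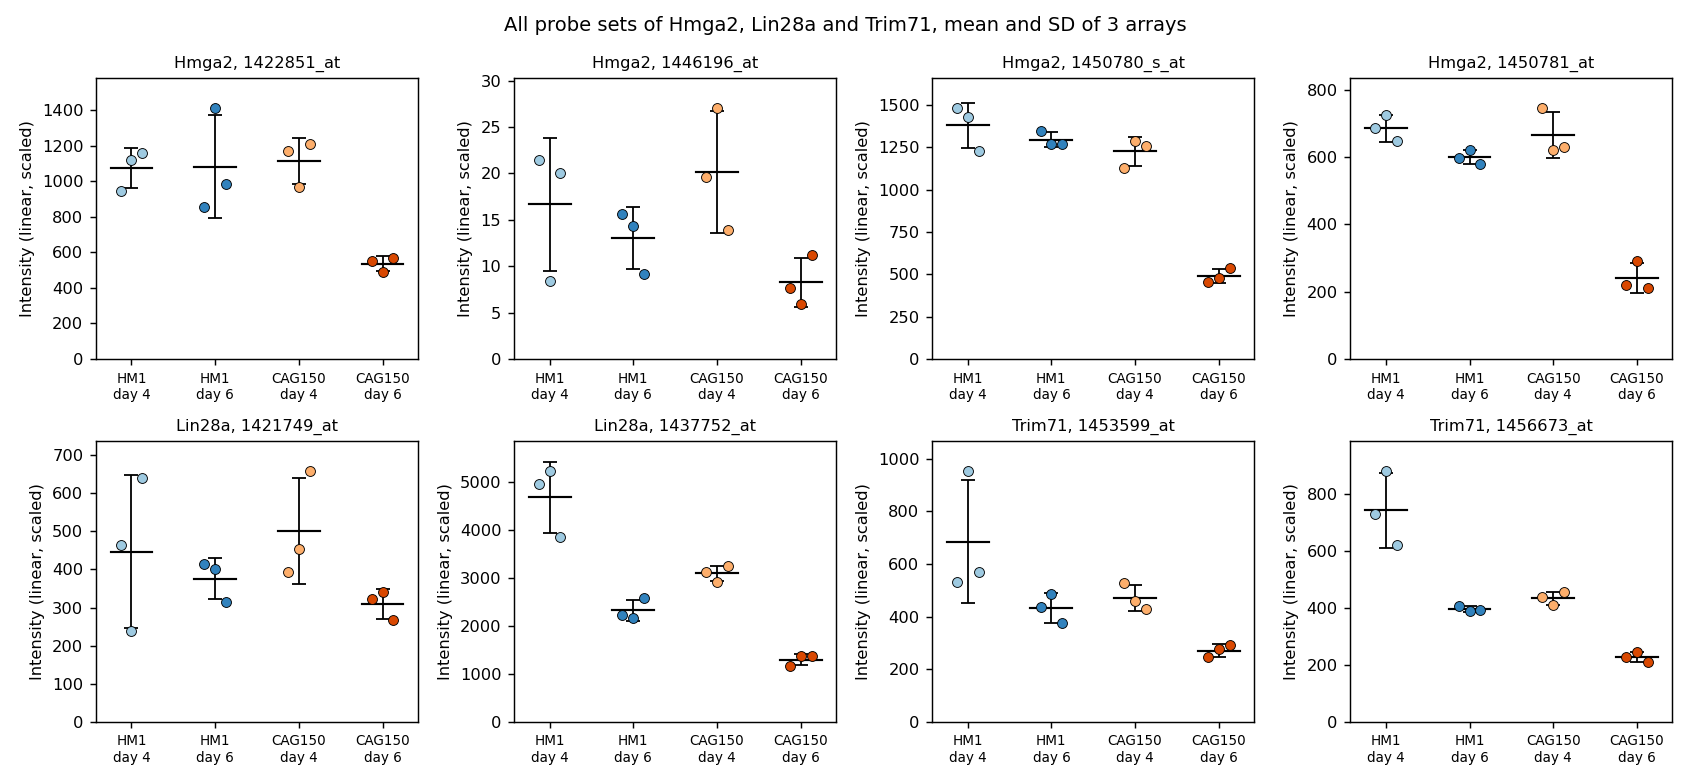
Intensity (linear, scaled) of every probe set of Hmga2, Lin28a and Trim71 on each array, by line and day, with the mean and SD of 3 arrays. The 3 bright Hmga2 probe sets drop in CAG150 at day 6, and the Lin28a probe sets do not run in parallel.

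Igf2bp1 and Igf2bp3 encode RNA-binding proteins that protect and localise messenger RNAs of fetal growth genes. Igf2bp1, on chromosome 11, read 2550, 2610 and 2340 in HM1 at day 4 (2500 ± 140) and 1970, 2130 and 1690 at day 6 (1930 ± 225). In CAG150 it read 2530, 2680 and 2830 at day 4 (2680 ± 149) and 2290, 2170 and 2200 at day 6 (2220 ± 60.9). Day 6 arrays lay below day 4 arrays in each line, and the day 4 groups overlapped. Igf2bp1 fell 1.3-fold with day in HM1 (-0.38 ± 0.1, adjusted p = 0.0075) and 1.2-fold in CAG150 (-0.27 ± 0.1, adjusted p = 0.037), the smallest falls among the genes that passed. The call in CAG150 was lost with quantile normalization (-0.2, adjusted p = 0.094), without the filter (adjusted p = 0.064), and without any of 5 arrays of that line, the exception being day 4 replicate 1 (adjusted p 0.056 to 0.11). Over all probe sets, 2 of its 4 passed with day in HM1 (27.8% of all) and 1 of 4 in CAG150 (33.5% of all). In CAG150 the brightest probe set did not pass in that limma fit (-0.27, adjusted p = 0.061), and a dimmer one did (-0.48, adjusted p = 0.019). Another dim probe set had 0.02 with day in HM1.

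Between lines Igf2bp1 did not pass (0.1 ± 0.1 at day 4, adjusted p = 0.54, and 0.21 ± 0.1 at day 6, adjusted p = 0.15). The 1007 tested genes of chromosome 11 had a median difference between lines of 0.17 at day 4 and 0.23 at day 6. With each chromosome centred on its median, the Igf2bp1 differences were -0.06 and 0. The medians of the other 4 chromosomes concerned were -0.06 to 0.

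Igf2bp3, on chromosome 6, was the steadiest of the 6 genes. It read 2240, 2220 and 2160 in HM1 at day 4 (2200 ± 42) and 2230, 2290 and 2250 at day 6 (2260 ± 34.4). CAG150 arrays read 1980, 2010 and 2030 at day 4 (2010 ± 25.8) and 2220, 2280 and 2120 at day 6 (2210 ± 81.9). The CAG150 day 4 arrays lay below all others, which overlapped. Igf2bp3 passed in no comparison, with differences of -0.13 ± 0.07 between lines at day 4 (adjusted p = 0.23) and 0.14 ± 0.07 with day in CAG150 (95% interval -0.02 to 0.29, adjusted p = 0.13). None of its 6 probe sets passed in any comparison, and all 6 had positive differences with day in both lines (0.04 to 0.24 in HM1 and 0.06 to 0.28 in CAG150). The difference in HM1 had the other sign with arrays centred on their medians (-0.07).

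**Figure D3:**
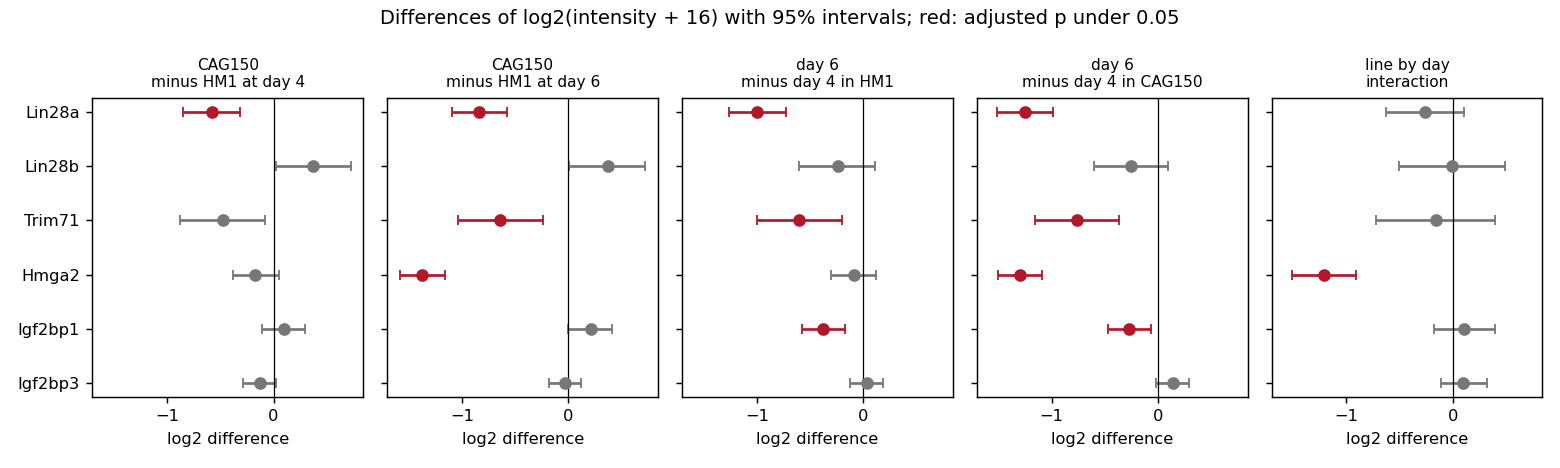
Difference of log2(intensity + 16) with its 95% interval for each of the 6 genes in each comparison, red where the adjusted p was under 0.05 and grey elsewhere. Hmga2 lies near 0 with day in HM1 (-0.09) and at -1.3 in CAG150.

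The 8 listed genes of the silencing complex encode Argonautes, which bind the mature microRNA, and proteins that work with them on its targets. From day 4 to day 6, 5 of 8 rose and 1 fell in each line, with medians of 0.34 in HM1 and 0.39 in CAG150. Of all genes 20.4% rose and 18.5% fell in HM1, and 22.5% and 21.9% in CAG150. This list and the others below were chosen with earlier results of these data known, so their counts are descriptions and no test. Ago1, an Argonaute that binds the microRNA, read 493 ± 39.3 at day 4 and 840 ± 57.2 at day 6 in HM1 (0.75, adjusted p = 2.9e-05), and 541 ± 22.7 and 1010 ± 46.6 in CAG150 (0.88, adjusted p = 5.8e-06). Its relative Ago4 was dimmer and went from 20.6 to 53 in HM1 (0.92) and from 28.5 to 73.8 in CAG150 (1.01). Tnrc6b, a GW182 scaffold that recruits the deadenylases, rose by 0.55 in HM1 and 0.75 in CAG150. Of its probe sets 1 of 3 passed in HM1 (0.15 to 0.55) and 2 of 3 in CAG150 (0.21 to 0.75). Ago3 rose by 0.43 (adjusted p = 0.047) and 0.5 (adjusted p = 0.023), calls that held in 9 and 17 of 23 alternatives, and with probe sets averaged the rise in CAG150 was 0.12 (adjusted p = 0.3). The gene that fell in both lines was Ago2, the Argonaute that can cut its target (-0.31 and -0.27, named after its values were seen). Between lines 1 of 8 passed at each day, against 15.8% of all genes at day 4 and 21.4% at day 6. These were Mov10, an RNA helicase, at day 4 (29.2 against 12.7, -0.63, adjusted p = 0.032) and Ago4 at day 6 (0.38, adjusted p = 0.018). Mov10 lay near the filter intensity of 11.9, and 0 of its 2 probe sets passed in the fit over all probe sets. The Mov10 call held in 15 of 22 alternatives and the Ago4 call in 18 of 22, each being lost when single arrays of the groups compared were left out.

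For the 12 proteins that process or destroy let-7, the brightest probe sets gave differences between -0.42 and 0.42 in every comparison. Between lines 1 passed at day 4, Tarbp2, a partner of Dicer (364 against 295, -0.29, adjusted p = 0.046), where 15.8% of all genes passed. At day 6, 0 passed by limma (21.4% of all genes did), and 2 had an unadjusted p under 0.05. With day in HM1, 1 rose and 3 fell, and in CAG150, 1 rose and 1 fell, which is no more than the background of 38.9% and 44.4% of all genes. Tut7, a uridylyl transferase that Lin28a recruits, rose from 227 to 284 in HM1 (0.31, adjusted p = 0.016) and from 225 to 307 in CAG150 (0.42, adjusted p = 0.0021). In HM1 Khsrp, which promotes let-7 maturation, fell by 0.42 (adjusted p = 0.026, with 3 of 3 probe sets passing at -1.28 to -0.42), Tarbp2 by 0.36 and Xpo5, the precursor's exporter, by 0.27. In CAG150 Drosha, the nuclear nuclease, fell by 0.35 (adjusted p = 0.029). In the fit over all probe sets 0 of 2 passed for Xpo5 in HM1 and for Tarbp2 at day 4. Tarbp2 in HM1 and Tut7 in each line had 1 of 2 passing, and Drosha in CAG150 had 1 of 3 (-0.35 to -0.07). Single arrays left out also ended most of these calls: of 23 alternatives Tarbp2 at day 4 held in 8, Drosha in 16, Xpo5 in 18, Khsrp in 19 and Tut7 in HM1 in 20, while Tut7 in CAG150 held in all 23. For the difference between lines in the day change, 0 of these 12 and 0 of the 8 silencing genes passed by limma. Of all genes 3.61% passed. With an unadjusted p under 0.05 the counts were 0 and 1.

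Other let-7 targets, 19 of them with a value, moved in both directions. CAG150 cells had 2 higher and 4 lower at day 4 (median -0.18) and 1 higher and 9 lower at day 6 (median -0.27), against 7.92% and 11.2% of all genes lower. With day, 5 rose and 6 fell in HM1 and 4 rose and 7 fell in CAG150, where 38.9% and 44.4% of all genes passed. Myc, the growth transcription factor, fell from 163 to 85.4 in HM1 (-0.82) and from 152 to 45.9 in CAG150 (-1.45). Its relative Mycn fell by 0.88 and 1.01, though 1 of its 3 probe sets had the other sign (0.31 and 0.32, not passed). Nr6a1, an orphan nuclear receptor of early embryos, fell by 0.84 and 1.04. Arid3b, a DNA-binding protein, was lower in CAG150 at day 4 (242 against 119, -0.94, adjusted p = 0.00015).

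The day changes of 4 of these 19 targets, a list chosen with earlier results known, differed between lines, against 3.61% of all genes. Ccnd2, a D-type cyclin, read 1130, 1230 and 1110 in HM1 at day 4, 3080, 3210 and 3170 in HM1 at day 6, 2080, 1980 and 1740 in CAG150 at day 4 and 1680, 1820 and 1830 in CAG150 at day 6. HM1 at day 6 lay above all others and HM1 at day 4 below them, so the sign of the line difference turned from 0.73 at day 4 (adjusted p = 0.00011) to -0.82 at day 6 (adjusted p = 3.1e-05). It rose in HM1 (1.44, adjusted p = 9.9e-08), with -0.12 in CAG150 (adjusted p = 0.29), and the interaction was -1.56 ± 0.12 (adjusted p = 3.6e-05), passed by 7 of 7 probe sets.

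Its paralog Ccnd1 had the pattern of Hmga2. It read 1600, 1970 and 1530 in HM1 at day 4, 1450, 1580 and 1430 in HM1 at day 6 and 1780, 1480 and 1640 in CAG150 at day 4, against 859, 815 and 838 in CAG150 at day 6. The last 3 arrays lay below the other 9. The difference with day was -0.95 in CAG150 (adjusted p = 1.4e-05) and -0.18 in HM1 (adjusted p = 0.19), and the interaction was -0.76 ± 0.15 (adjusted p = 0.014).

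Cdk6, the kinase that D-type cyclins activate, was lower in CAG150 at both days. It read 197, 195 and 183 in HM1 at day 4, 256, 276 and 335 at day 6, and 104, 111 and 105, then 95.9, 95.3 and 97.9, in CAG150. No groups overlapped. The line difference was -0.76 at day 4 and -1.43 at day 6 (adjusted p = 5.3e-07), and the interaction -0.67 ± 0.13 (adjusted p = 0.015). Thbs1, a secreted matrix glycoprotein, read 1040, 1020 and 1070, then 661, 713 and 525, in HM1 and 225 to 266 on the 6 CAG150 arrays. It fell with day in HM1 (-0.72, adjusted p = 0.00025), with 0.01 in CAG150 (adjusted p = 0.94), and its interaction was 0.73 ± 0.16 (adjusted p = 0.022). That call was lost with probe sets averaged (0.62, adjusted p = 0.054) and without HM1 day 4 replicate 3, CAG150 day 4 replicate 2 or CAG150 day 6 replicate 2.

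**Figure D4:**
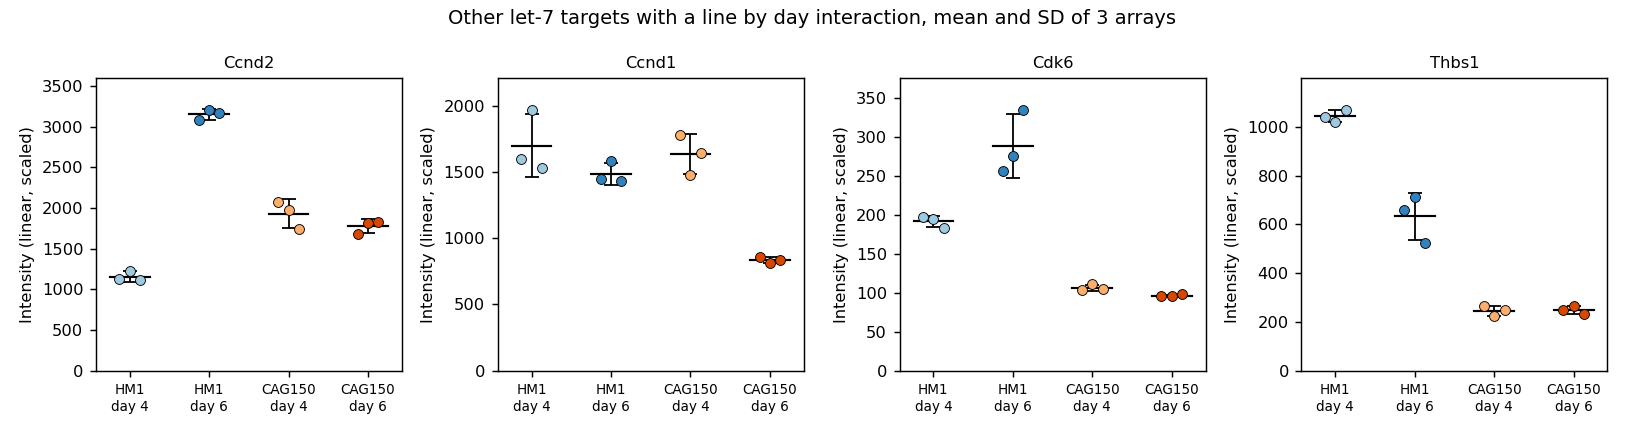
Intensity (linear, scaled) of Ccnd2, Ccnd1, Cdk6 and Thbs1 on each array, with the mean and SD of 3 arrays. Ccnd2 is highest in HM1 at day 6 (3160) and Ccnd1 lowest in CAG150 at day 6 (837).

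**Figure D5:**
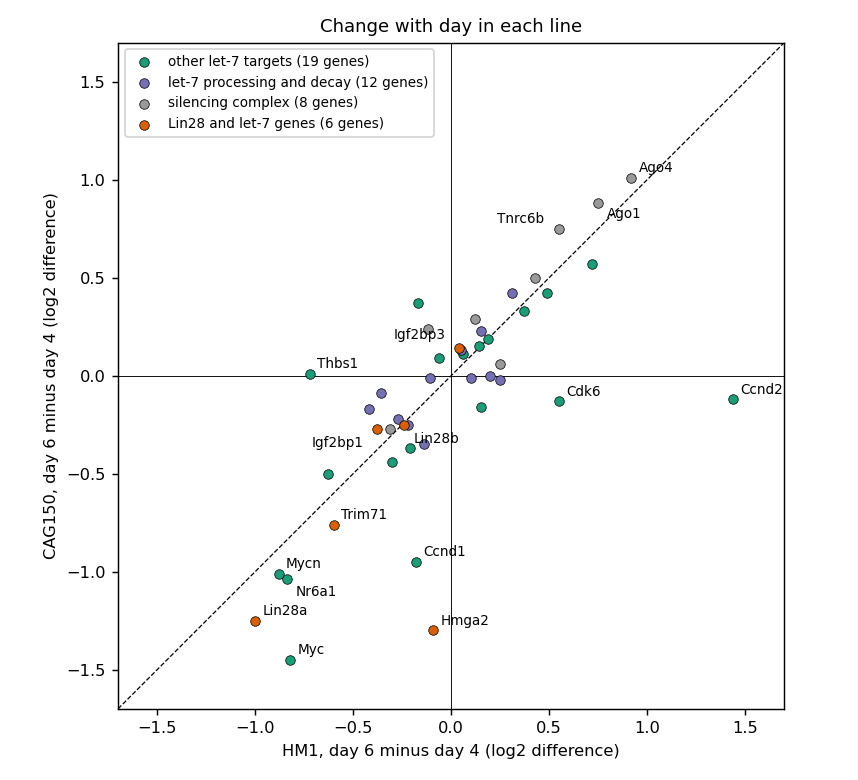
Difference between day 6 and day 4 in log2(intensity + 16) in CAG150 (vertical axis) against HM1 (horizontal axis) for the 6 genes and the 3 lists, with a dashed line of equal change. Ago1, Ago4, Lin28a and Mycn lie near the line, and Hmga2, Ccnd1 and Ccnd2 lie below it.

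Markers of other cell states moved between the same groups, and their part in these results was not tested. The summed intensity of 8 neuron markers was 2980 to 3300 at day 4 and 6490 to 7560 at day 6 in HM1, and 1860 to 2120 and 9640 to 10400 in CAG150. Of these markers 7 of 8 rose with day in each line, while Lin28a fell, and 20.4% of all genes rose in HM1 and 22.5% in CAG150. Between lines 4 were higher and 1 lower in CAG150 at day 4 (median 0.38), and 6 were higher at day 6 (median 0.45). Of all genes 7.87% were higher and 7.92% lower at day 4, and 10.1% were higher at day 6. The lower marker was Stmn2, a bright one with a mean of 2110 in HM1 (2020 to 2220) and 607 in CAG150 (549 to 663) at day 4, so the lower CAG150 sum does not speak for the list. Of 8 pluripotency markers 5 passed as lower in CAG150 at each day, as Lin28a did. Of all genes 7.92% were lower at day 4 and 11.2% at day 6. With day 3 of these markers rose in HM1 and 4 in CAG150, where 20.4% and 22.5% of all genes rose, while Nanog fell in both. Their summed intensity was 4070 to 4090 and 5150 to 5240 in HM1 and 2610 to 2760 and 3680 to 3780 in CAG150, and its brighter members Sox2, which neural progenitors also express, and Dppa5a were among those that rose. Sox2 read 2520 ± 90.1 and 2970 ± 151 in HM1, and Dppa5a 651 ± 26.2 and 1350 ± 174. Pou5f1, which defines pluripotent cells, was detected in every group, at 341 ± 124 and 308 ± 10.4 in HM1 and 105 ± 21 and 106 ± 29.4 in CAG150. Neural progenitor sums were 5260 to 6380 at day 4 and 12000 to 12800 at day 6 in HM1, and 7270 to 7720 and 14100 to 14500 in CAG150. Of these 8 markers 6 rose and 1 fell with day in HM1, and 7 rose and 1 fell in CAG150, where 38.9% and 44.4% of all genes passed. Sox1 was the marker that fell (1350 to 514 in HM1 and 1110 to 619 in CAG150). Fabp7 was the brightest in the day 6 sums (5410 in HM1 and 6690 in CAG150).

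Markers of mesenchyme and smooth muscle, 7 of 8 above the filter, summed to 3310 to 3790 and 4790 to 5730 in HM1 at day 4 and day 6, against 532 to 578 and 318 to 328 in CAG150. Of these markers 5 were lower in CAG150 at each day, and 3 had a lower day change in CAG150, as Hmga2 had. Of all genes 7.92% were lower at day 4, 11.2% were lower at day 6 and 2.03% had a lower day change. At day 4 the sums lay apart between lines and the Hmga2 groups overlapped, and a link between them was not tested. Most of the HM1 day 4 sum came from Acta2 (mean 1610) and Tagln (mean 1380). Col1a2 was not lower in CAG150 at day 4 (66.6 in HM1 and 79.2 in CAG150). The 8 endoderm markers, 5 above the filter, summed to 334 to 422 and 613 to 626 in HM1 and to 223 to 264 and 241 to 325 in CAG150. Of the 8, Afp, Ttr and Sox7 were below the filter. Of the 5 tested, 4 rose with day in HM1, among them Sox17 (20.8 to 63.7, 1.14, adjusted p = 0.00014) and Gata6 (12.2 to 23.1, 0.47, adjusted p = 0.0061), and 1 in CAG150, Sox17 (9.96 to 37.9, 1.05, adjusted p = 2e-04).

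Across the 12 arrays, which share the 4 groups, Lin28a followed Trim71 (Pearson r = 0.9) and Hmga2 (r = 0.87) and had r = 0 with Lin28b. Lin28b ran against Igf2bp3 (r = -0.78). Of all tested genes, those most like Lin28a in log2 intensity were Klhl21 (r = 0.991), Podxl (0.988) and Orc5 (0.988). Klhl21 lies on chromosome 4, as Lin28a does, with means of 139 and 73.2 in HM1 and 90.6 and 40.3 in CAG150. Podxl had 610 and 258 in HM1 and 424 and 122 in CAG150. For Hmga2 they were Ctsl (r = 0.97), Stk26 (0.967) and Cpped1 (0.965). Ctsl, a lysosomal protease, had means of 2630 and 2630 in HM1 and 2570 and 1490 in CAG150, the same single low group. For Trim71 they were U2af1 (r = 0.958), Dpy30 and Samm50 (both 0.954), for Igf2bp1 G3bp1 (0.959), Gsr (0.949) and Lrrc40 (0.943), for Igf2bp3 Tbcel (0.968), Zfp42 (0.923) and Mapk4 (0.921), and for the dim Lin28b Poli (0.916), Rhbdd3 (0.895) and Rexo1 (0.885). These values describe 12 arrays in 4 groups and carry no test.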

How the data were processed

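The values are intensities that the authors deposited, 1 table of 45101 probe sets on 12 arrays. On every array the mean without the top and bottom 2% was 150, read from the values, made by software not given in the sources used here. Controls (64) were left out. By the platform annotation 34945 probe sets have 1 symbol, 932 several and 9160 none. For each gene the brightest probe set was used and kept where its mean of log2(intensity + 16) was above the 40th percentile (4.8, an intensity of 11.9). One mean per group was fitted with limma 3.58.1 in R 4.3.3 (8 residual and 4.46 prior degrees of freedom), after tests on simulated data. P-values were adjusted over 12280 genes in each of 5 comparisons, and separately over all probe sets above the filter. The text names all listed genes, up to 4 passing genes per list and comparison with the largest differences, and for each tested gene the 3 most correlated genes. Members and lists were chosen with earlier results of these data known. Alternatives covered scaling, filter, pseudocount (1, 64), probe set averaging, the groups fitted, a replicate block, chromosome centring and leaving out each array. Replicate numbers gave no sign of pairing: of 12 same-number pairs, 1 had a correlation of deviations over 0.1 (-0.13 to 0.12). Different-number pairs had -0.16 to 0.22. With 3 arrays per group this check cannot show that the samples were unpaired.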

Additional observations from a re-analysis of the deposited data

Results flagged for a closer look

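The change from day 4 to day 6 differed between the lines, by the test of that difference, in 5 of the named genes. CAG150 minus HM1 in the log2 day change was -1.21 for Hmga2, -1.56 for Ccnd2, -0.76 for Ccnd1 and -0.67 for Cdk6, and 0.73 for Thbs1. Groups of 3 arrays are too small for a search for single outlying arrays.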

How the results depend on the processing

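Of 685 values of the 6 genes under an alternative, 652 kept their direction and side of the threshold, 15 lost a call, 7 gained one and 11 changed sign. Hmga2 kept its calls in all 23 alternatives (-1.44 to -0.97 between lines at day 6, -1.4 to -1.08 with day in CAG150, -1.28 to -0.97 for the interaction). At day 4, 2 of the 6 genes passed rather than 1 with a pseudocount of 64 and with only the groups compared. Leaving out 1 array gave 1 to 2 genes at day 4, 2 to 3 at day 6, 2 to 3 with day in HM1, 3 to 4 in CAG150 and 1 for the interaction. Signs that turned belonged to values that had not passed: Igf2bp1 at day 4 with chromosomes centred (-0.06), its interaction with probe sets averaged (-0.02), Igf2bp3 at day 6 with quantile normalization (0.03) and with day in HM1 with median centring (-0.07), and the Lin28b interaction with a pseudocount of 1 (0.08), chromosomes centred (0) and 1 array left out (-0.23 to 0.15). Igf2bp3 passed with day in CAG150 with quantile normalization (0.23, adjusted p = 0.015). The causes were not tested. Of 847 values of the genes named from the lists, 777 kept their call and 70 lost it, with 0 changes of sign.

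With the replicate block the number of the 6 genes that passed was 1 at day 4, 3 at day 6, 3 with day in HM1, 4 in CAG150 and 1 for the interaction, as without it. Among the genes named from the lists it lost the call of Tarbp2 at day 4 (adjusted p = 0.053). Median centring moved the share of higher genes among those that passed from 49.8% to 31.4% at day 4, 47.4% to 33.4% at day 6, 52.4% to 36.2% with day in HM1 and 50.6% to 36.2% in CAG150, with the median of all genes moved by -0.1 to -0.06. Dim probe sets such as that of Lin28b limit what these arrays resolve.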
